A study of Mus musculus with 2 samples.

Results

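The 33 genes described here encode enzymes and regulators of cholesterol and fatty acid synthesis. They were chosen by name from the 32246 gene symbols of the count tables, and all 33 were present. The sterol branch held 23 of them and the fatty acid branch 10. Their levels were read in adipose progenitors, which are the fibroblast-like stromal cells that can give rise to adipocytes, and in endothelial cells of mouse subcutaneous white fat.

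Cells build cholesterol from acetyl-CoA by the mevalonate pathway, in which early enzymes make isoprenoid units, squalene synthase and squalene epoxidase commit them to sterols, and late enzymes trim lanosterol to cholesterol. Fatty acids are built from the same acetyl-CoA by ATP citrate lyase, acetyl-CoA carboxylase and fatty acid synthase, and are then elongated and desaturated. Transcription of both routes is driven by the SREBP factors: SREBP2, from Srebf2, acts mainly on sterol genes and SREBP1, from Srebf1, mainly on fatty acid genes. When sterols are plentiful, Scap and Insig1 hold SREBPs in the endoplasmic reticulum, and when sterols fall the factors are released to the nucleus.

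The cells were sorted as CD45-negative cells from collagenase-digested subcutaneous fat, the stromal vascular fraction, and sequenced on the 10x platform with 3′ chemistry. Of the 2 libraries, 1 came from WT mice and 1 from Paqr4 transgenic mice. Paqr4 encodes a membrane protein of the progestin and adipoQ receptor family. The study's design text names a pool of 3 mice without saying whether this was per library, and the labels give no promoter for the transgene and no strain, age or sex.

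After filtering and removal of doublets, 1326 cells with 28372402 UMIs (unique molecular identifiers, 1 per captured RNA molecule) remained in the WT library and 1512 cells with 28051889 UMIs in the transgenic library. No cell barcode was shared between them. Levels are given as UMIs per 1000000 UMIs of the cell group (UPM), WT first. Paqr4 was at 7.89 and 9.56 UPM in progenitors of the 2 libraries, a ratio of 1.21 with a counting interval of 1.00 to 1.47. A transgene without the 3′ end of the gene would not be counted, so this value does not check the genotype label. Xist was at 958.6 and 0.153 UPM in progenitors and the Y-linked Ddx3y at 0.937 and 109.7, so the libraries differed in sex-linked genes as well as in genotype, and effects of these cannot be told apart. Haemoglobin genes took 28.2% and 29.1% of the UMIs of all barcodes, and 25 and 5 cells formed an unnamed cluster led by pancreatic enzyme genes such as Clps and Ctrb1. With 1 library per genotype no test was possible, and every interval printed is a 95% interval for counting error only, which leaves out differences between animals.

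The levels are 3′ counts, not scaled to transcript length, so they compare cells and libraries and are not ranked between genes. Progenitors numbered 1125 in the WT library and 1350 in the transgenic one, with median depths of 22600 and 19326.5 UMIs per cell, and Pdgfra was seen in 97.7% and 96.4% of them against 1.98% and 3.53% of endothelial cells. Endothelial cells numbered 101 and 85, with median depths of 9541 and 7645 UMIs, and Pecam1 was seen in 100.0% and 95.3% of them against 3.56% and 3.85% of progenitors.

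The sequence upstream of each gene is a feature that the choice of members did not use. Of the 33 members, 26 had an entry in the RefSeq promoter table (build GRCm38.p6), and the 250 bases before each listed start were searched on both strands for 4 motifs. These were the CCAAT box, which is named by its letters, an SRE-type motif with the letters TCACNCCA, an E-box with the letters CACGTG, and a GC box with the letters GGGCGG. Matches of different motifs were counted whether or not they overlapped. A CCAAT box stood before 17 of 19 sterol genes (89.5%), before 3 of 7 fatty acid genes (42.9%) and before 37.5% of all 27025 genes in the table. GC boxes were found before 17 of 19 sterol genes (89.5%), 4 of 7 fatty acid genes (57.1%) and 35.4% of all genes. The SRE-type letters stood before 3 of 19 sterol genes (15.8%), Hmgcs1, Srebf2 and Msmo1, against 4.20% of all genes and 0 of 7 fatty acid genes. E-boxes stood before 5 of 19 sterol genes (26.3%), no fatty acid gene and 6.86% of all genes. These matches are descriptions of letters, and their binding was not measured. The sequences below run 5′ to 3′ on the strand of the gene and end where the first annotated start of either RefSeq or GENCODE begins. All but the last are sterol genes whose levels between libraries are described below, and the last is Acly, a fatty acid gene with neither capitalised motif. The sterol genes printed are a selection in which each sequence holds a CCAAT box. Other sterol genes described below, such as Cyp51 and Sc5d, are not printed, so the shares above are the ones to read. Capitals mark CCAAT boxes, on whichever strand they lie, and the SRE-type motif.
Hmgcs1 (chr13:119690101-119690350, plus strand): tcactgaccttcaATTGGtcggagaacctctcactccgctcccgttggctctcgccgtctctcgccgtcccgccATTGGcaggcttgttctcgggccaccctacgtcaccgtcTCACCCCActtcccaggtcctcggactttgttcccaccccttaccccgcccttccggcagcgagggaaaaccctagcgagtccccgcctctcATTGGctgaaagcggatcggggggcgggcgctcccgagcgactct
Srebf2 (chr15:82147019-82147180, plus strand): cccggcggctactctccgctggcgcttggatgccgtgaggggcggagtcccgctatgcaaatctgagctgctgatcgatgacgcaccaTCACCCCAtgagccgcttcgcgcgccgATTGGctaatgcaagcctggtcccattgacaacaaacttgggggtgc
Insig1 (chr5:28071162-28071362, plus strand): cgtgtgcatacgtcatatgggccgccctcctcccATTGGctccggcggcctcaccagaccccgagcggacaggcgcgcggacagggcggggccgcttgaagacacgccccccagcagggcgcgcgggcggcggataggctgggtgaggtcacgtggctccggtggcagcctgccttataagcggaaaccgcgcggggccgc
Hsd17b7 (chr1:169969242-169969455, minus strand): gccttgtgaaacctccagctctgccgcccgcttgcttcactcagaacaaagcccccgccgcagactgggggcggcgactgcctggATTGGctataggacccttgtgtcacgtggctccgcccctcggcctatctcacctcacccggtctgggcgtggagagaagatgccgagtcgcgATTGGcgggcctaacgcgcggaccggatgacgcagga
Ebp (chrX:8193513-8193762, minus strand): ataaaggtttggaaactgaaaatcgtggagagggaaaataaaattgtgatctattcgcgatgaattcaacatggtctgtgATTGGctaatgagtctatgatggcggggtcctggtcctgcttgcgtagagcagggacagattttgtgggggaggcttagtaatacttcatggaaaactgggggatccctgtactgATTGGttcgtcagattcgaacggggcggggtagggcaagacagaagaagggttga
Acly (chr11:100528001-100528250, minus strand): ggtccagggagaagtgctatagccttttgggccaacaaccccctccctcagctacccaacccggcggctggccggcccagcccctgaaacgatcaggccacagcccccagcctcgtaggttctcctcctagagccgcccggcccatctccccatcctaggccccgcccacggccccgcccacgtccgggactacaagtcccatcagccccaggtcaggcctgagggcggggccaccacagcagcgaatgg

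Counted from base 1 at the 5′ end of each printed sequence, the SRE-type motif of Hmgcs1 began at base 114, between CCAAT boxes at bases 75 and 206. In the Srebf2 sequence it began at base 89, with a CCAAT box at base 116.

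In progenitors the sterol branch was higher in the transgenic library and the fatty acid branch was higher by less. The 23 sterol genes together summed to 363.8 UPM (WT) and 589.0 UPM (transgenic), a log2 ratio of 0.70 (0.66 to 0.73), or 1.62-fold. The 10 fatty acid genes together were at 403.8 and 483.3 UPM, a log2 ratio of 0.26 (0.22 to 0.30). A gene was described singly when the mean of its 2 libraries reached 10 UPM, which 15 of 23 sterol genes and 10 of 10 fatty acid genes did. Of these, 11 sterol genes and 0 fatty acid genes were 1.5-fold or more higher in the transgenic library, against 2.49% of the 8543 genes at the same floor, and none was 1.5-fold or more lower, against 1.55%. The median log2 ratio was 0.83 over the 15 sterol genes, 0.28 over the 10 fatty acid genes and 0.09 over all 8543. Of the 15 sterol genes, 2 (Sqle and Stard4) reached the floor only through the transgenic library, which by itself favours a higher ratio. Over all 23 sterol genes with no floor, the median was 0.64 and 22 were above 0. In bulk sums such as these, more cells with the RNA and more RNA per cell cannot be told apart.

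**Figure D1:**
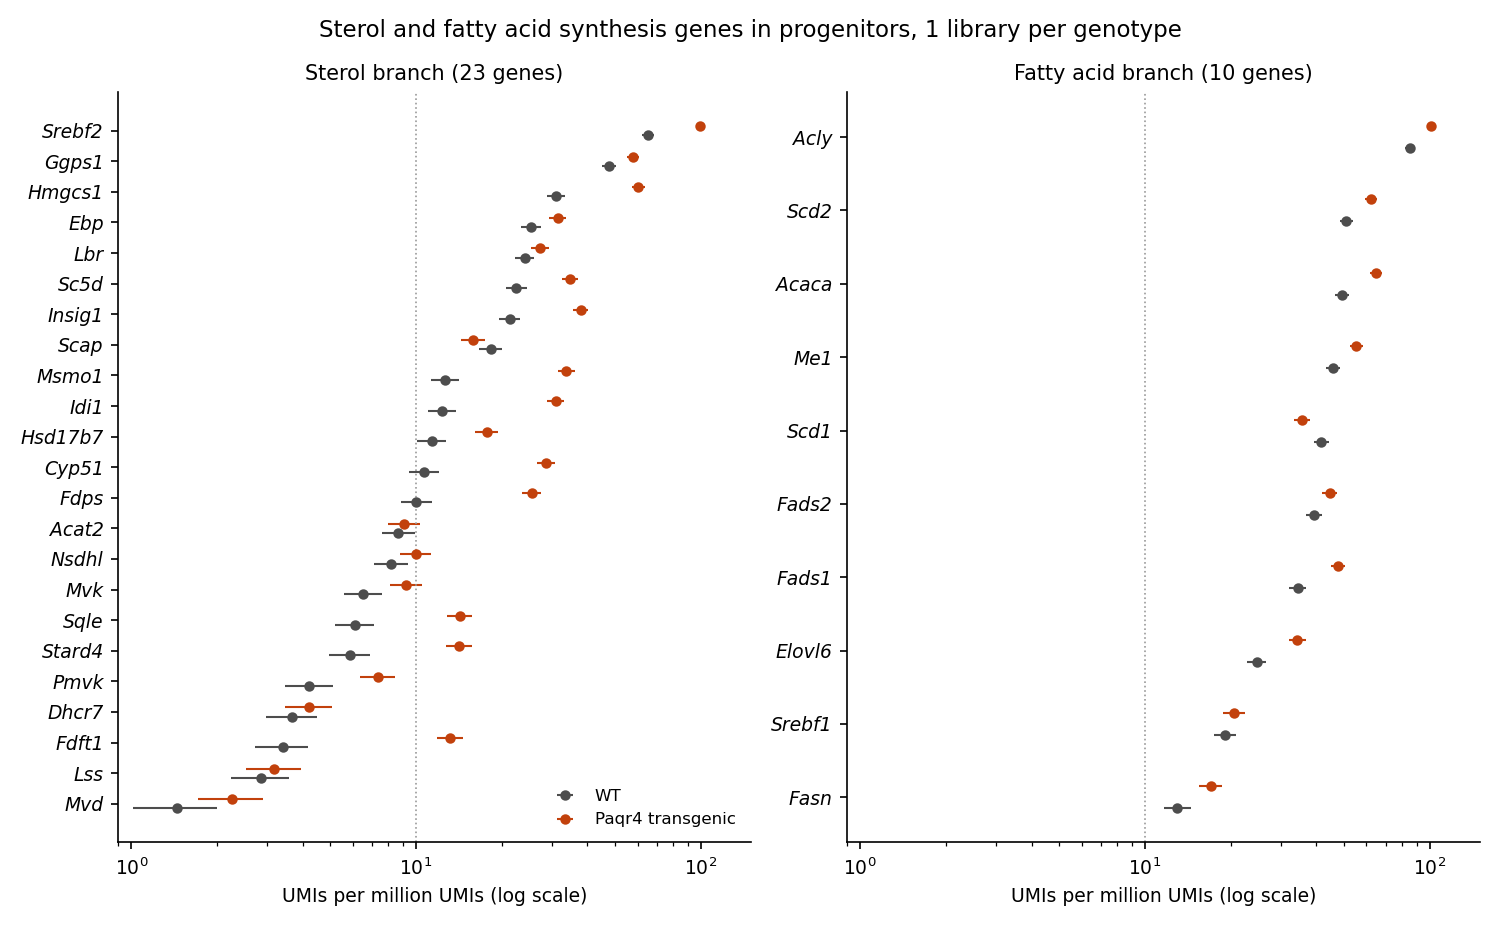
Level of each of the 33 genes in progenitors of the WT (gray) and Paqr4 transgenic (orange) libraries, in UPM on a log axis, with 95% Poisson intervals for counting error and 1 library per genotype. The dotted line marks 10 UPM, and Cyp51 moves from 10.7 to 28.7 while Acly moves from 85.5 to 101.4.

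The early enzymes of the mevalonate route were led by Hmgcs1, Idi1 and Fdps. Hmgcs1, the HMG-CoA synthase that feeds the pathway, was at 31.1 and 60.4 UPM, a log2 ratio of 0.96 (0.84 to 1.09). Idi1, the isomerase that makes dimethylallyl diphosphate, was at 12.3 and 31.0 UPM, a log2 ratio of 1.33 (1.14 to 1.52). Fdps, which makes farnesyl diphosphate, was at 10.0 and 25.5 UPM, a log2 ratio of 1.35 (1.14 to 1.56). None of these intervals reached the median of all genes. Ggps1 makes geranylgeranyl diphosphate for protein prenylation, a branch off the route to sterols, and was closer to that median, at 47.8 and 57.9 UPM with a log2 ratio of 0.28 (0.17 to 0.39).

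Among enzymes that act from squalene onward, the differences spread from large to small. Sqle, squalene epoxidase, was at 6.09 and 14.3 UPM, a log2 ratio of 1.23 (0.95 to 1.51). Cyp51, the lanosterol demethylase, was at 10.7 and 28.7 UPM, a log2 ratio of 1.42 (1.22 to 1.63). Msmo1, the sterol C4-methyl oxidase, was at 12.7 and 33.7 UPM, a log2 ratio of 1.41 (1.23 to 1.60). None of these intervals reached the median of all genes either. Hsd17b7, the 3-ketosteroid reductase that removes the C4 group together with Msmo1, was at 11.4 and 17.7 UPM, a log2 ratio of 0.64 (0.42 to 0.86). Sc5d, the sterol C5 desaturase, was at 22.5 and 34.8 UPM, a log2 ratio of 0.63 (0.48 to 0.78). Ebp, the sterol isomerase, was at 25.4 and 31.5 UPM, a log2 ratio of 0.31 (0.16 to 0.46). The last of these enzymes was Lbr, a lamin receptor of the inner nuclear membrane that also has sterol C14 reductase activity. Lbr was at 24.1 and 27.2 UPM, a log2 ratio of 0.18 (0.02 to 0.34).

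Among the genes that sense and move sterols, Srebf2, Insig1 and Stard4 were higher in the transgenic library and Scap was not. Srebf2 was at 65.4 and 99.8 UPM, a log2 ratio of 0.61 (0.52 to 0.70). Insig1, the anchor that retains the SREBP carrier and is itself an SREBP target, was at 21.4 and 37.9 UPM, a log2 ratio of 0.83 (0.67 to 0.98). Stard4, a soluble carrier of cholesterol between membranes, was at 5.86 and 14.2 UPM, a log2 ratio of 1.28 (1.00 to 1.56). Scap, the carrier that escorts SREBPs to the Golgi, was the only sterol gene at the floor that was lower in the transgenic library, at 18.3 and 15.8 UPM with a log2 ratio of -0.21 (-0.40 to -0.01).

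When the progenitor clusters were given equal weight, the ratios of Sqle and Sc5d were 0.60 and 0.32.

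The 8 sterol genes under the floor were Fdft1, Lss, Dhcr7, Acat2, Mvk, Pmvk, Mvd and Nsdhl, and all 8 had log2 ratios above 0. Nsdhl, at a mean just under the floor, was at 8.16 and 9.98 UPM, and Sqle and Stard4 were just above it. Fdft1, squalene synthase, had the largest ratio of all 33 genes: 3.40 and 13.2 UPM, from 87 and 344 UMIs, a log2 ratio of 1.95 (1.61 to 2.31). Pmvk, phosphomevalonate kinase, was at 4.22 and 7.34 UPM with a log2 ratio of 0.80 (0.45 to 1.15), and Mvk, mevalonate kinase, at 6.52 and 9.26 UPM with a log2 ratio of 0.50 (0.21 to 0.80). Mvd, the decarboxylase that follows them, was at 1.45 and 2.26 UPM, a log2 ratio of 0.64 (0.03 to 1.28). For Lss, Dhcr7 and Acat2 the intervals included 0, with log2 ratios of 0.15, 0.20 and 0.07.

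The fatty acid branch moved less and more evenly. Acly, ATP citrate lyase, was at 85.5 and 101.4 UPM, a log2 ratio of 0.25 (0.16 to 0.33). Acaca, acetyl-CoA carboxylase, was at 49.3 and 64.8 UPM, a log2 ratio of 0.39 (0.29 to 0.50). Fasn, fatty acid synthase, was at 13.0 and 17.0 UPM, a log2 ratio of 0.39 (0.18 to 0.60). The enzymes that supply carbon and assemble palmitate thus lay within a narrow band. Me1, the malic enzyme that supplies NADPH, lay in it too, at 45.8 and 55.2 UPM with a log2 ratio of 0.27 (0.16 to 0.38). Srebf1 was at 19.1 and 20.6 UPM, with a log2 ratio of 0.10 whose interval, -0.07 to 0.28, included 0.

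Of the elongation and desaturation enzymes, Elovl6 and Fads1 had the highest ratios between libraries and Scd1 the lowest. Elovl6, which elongates palmitate, was at 24.7 and 34.3 UPM, a log2 ratio of 0.47 (0.33 to 0.62). Fads1, the delta-5 desaturase of polyunsaturated fatty acids, was at 34.4 and 47.8 UPM, a log2 ratio of 0.48 (0.35 to 0.60). Fads2, the delta-6 desaturase beside it on chromosome 19, was at 39.2 and 44.6 UPM, a log2 ratio of 0.18 (0.06 to 0.31). The delta-9 desaturases Scd1 and Scd2 lay on opposite sides of 0: Scd2 was at 51.1 and 62.1 UPM, a log2 ratio of 0.28 (0.18 to 0.39). Scd1 was at 41.7 and 35.5 UPM, a log2 ratio of -0.23 (-0.36 to -0.10). In the summed progenitors it was the only fatty acid gene that was lower in the transgenic library. With equal weight per progenitor cluster the Scd1 ratio was -0.04. Among the clusters described below, Scd1 was lower in the transgenic library in clusters 1 and 4 and slightly lower in clusters 2 and 6. It was higher in clusters 3 and 8. The largest drop was in cluster 1.

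Clustering without the 33 genes split the progenitors into states named from marker lists. Dpp4-like progenitors (cluster 4, 240 WT and 179 transgenic cells) had 9 of 11 Dpp4-state markers raised, Icam1-like progenitors (clusters 3 and 8, 247 and 383 cells) had 9 of 12 of theirs, and F3-like progenitors (cluster 1, 267 and 422 cells) had 4 of 10. Clusters 2 (331 and 265 cells, led by Tnfaip6, Adamts4 and the metallothioneins Mt1 and Mt2) and 6 (40 and 101 cells, led by Mgp and Gas1) stayed without a state. The stress genes Hspa1b, Hspa1a and Jun were among the leading genes of cluster 3, and Hspa1b among those of cluster 1.

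The gap between libraries was widest in Dpp4-like progenitors. There the sterol genes summed to 284.4 UPM (271.3 to 297.9) and 807.9 UPM (780.6 to 835.9), a log2 ratio of 1.51 (1.42 to 1.59), or 2.84-fold. In F3-like progenitors it was 315.4 and 493.1 UPM, a log2 ratio of 0.64 (0.56 to 0.73), and in cluster 2 it was 350.5 and 547.6 UPM, also a log2 ratio of 0.64 (0.57 to 0.72). Icam1-like progenitors started highest in the WT library, at 530.7 UPM, and were at 631.7 UPM in the transgenic one, a log2 ratio of 0.25 (0.18 to 0.32). In cluster 6 the sums, 399.3 and 432.3 UPM, differed by a log2 ratio of 0.11 whose interval, -0.08 to 0.31, included 0. The intervals of the Dpp4-like and Icam1-like ratios were far apart, but with 1 library per genotype the difference between states was not tested. The F3-like and Icam1-like values depended on where cluster borders lay: with each library clustered on its own they were 0.30 and 0.50. The Icam1-like value was 0.41 without the small cluster 8 and 0.49 (0.26 to 0.72) in cluster 8 alone. That cluster held 629 of the 2661 WT sterol UMIs of the state and 212 of the 4596 transgenic ones.

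**Figure D2:**
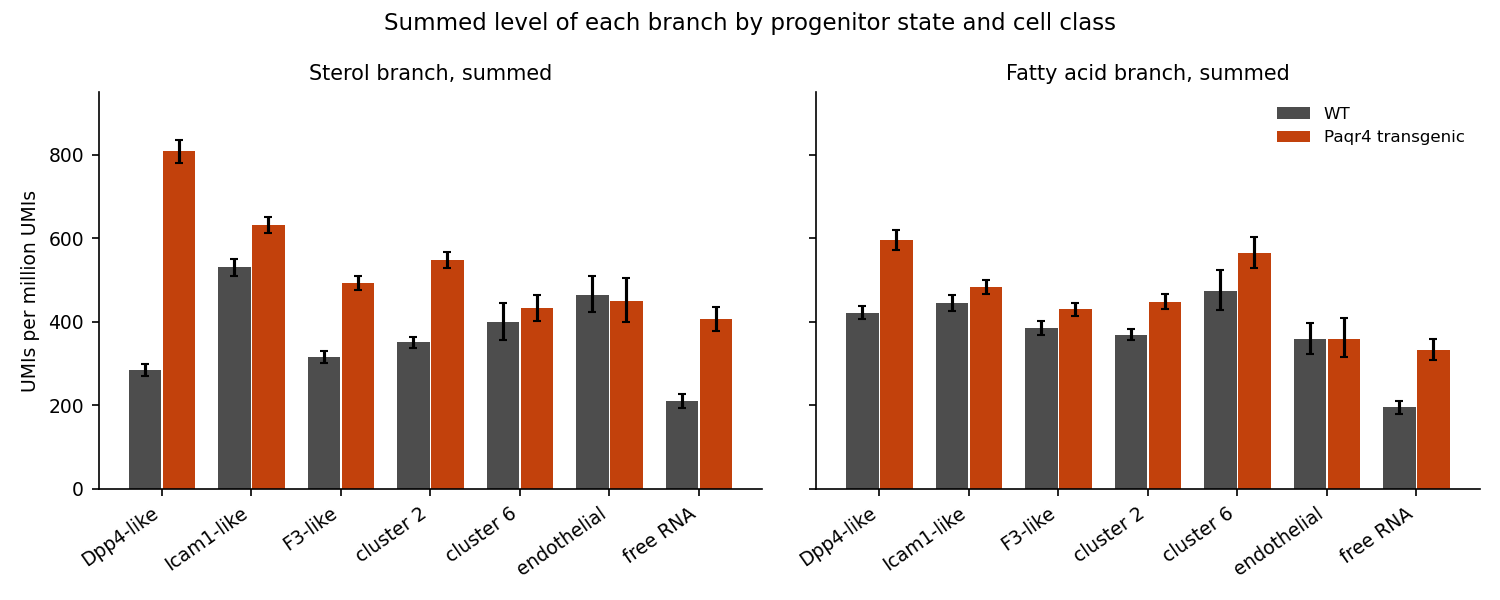
Summed level of the sterol branch (left) and the fatty acid branch (right) in progenitor states, unnamed progenitor clusters, endothelial cells and free RNA, in UPM, for the WT (gray) and Paqr4 transgenic (orange) libraries. Error bars are 95% Poisson intervals for counting error, with 1 library per genotype, and the tallest bar is the sterol branch in transgenic Dpp4-like progenitors at 807.9.

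Several sterol genes in Dpp4-like progenitors had large ratios between libraries, some of them from few WT UMIs. Stard4 was at 2.07 and 20.9 UPM, from 13 and 86 UMIs, a log2 ratio of 3.34 (2.49 to 4.30). Idi1 was at 5.42 and 48.4 UPM, a log2 ratio of 3.16 (2.63 to 3.73). Fdps was at 5.26 and 44.3 UPM, a log2 ratio of 3.07 (2.53 to 3.66). All 3 were under 10 UPM in the WT cells of this state, as were Cyp51 and Msmo1. Cyp51 was at 6.38 and 53.1 UPM with a log2 ratio of 3.06 (2.57 to 3.58), and Msmo1 at 8.45 and 54.5 UPM with 2.69 (2.25 to 3.15). Hmgcs1 had 157 UMIs in the WT and 424 in the transgenic cells, a log2 ratio of 2.04 (1.78 to 2.32), and Sc5d had 69 and 173 UMIs, a log2 ratio of 1.94 (1.53 to 2.36). Fdft1 and Sqle had 3 and 5 UMIs in all WT Dpp4-like cells together, against 78 and 70 UMIs in the transgenic ones.

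Counts of genes past the fold differed between states as well. In Dpp4-like progenitors 11 of the 14 sterol genes at the floor, and 5 of 10 fatty acid genes, were 1.5-fold or more higher in the transgenic library, against 5.83% of all genes. In F3-like progenitors the counts were 7 of 14 and 1 of 10, against 4.15%. In Icam1-like progenitors they were 5 of 18 and 2 of 10, against 4.07%. Some sterol genes reached the floor only through the transgenic library, where they were higher: 5 of the 11 past the fold in the Dpp4-like state (Cyp51, Fdps, Idi1, Msmo1 and Stard4), 3 of the 7 in the F3-like state and 2 of the 5 in the Icam1-like state. Over all 23 sterol genes with no floor, the median log2 ratios were 1.43, 0.69 and 0.20 in the Dpp4-like, F3-like and Icam1-like states, where the medians of all genes at the floor were 0.08, 0.07 and 0.01. The Icam1-like median lay below those of its clusters taken apart, 0.34 in cluster 3 and 0.47 in cluster 8. Cluster 8, the higher of them in sterol genes, held 35 of 247 WT and 11 of 383 transgenic cells of that state. In the Dpp4-like state the fatty acid genes past the fold were Fads1, Scd2, Fasn, Acaca and Elovl6, with log2 ratios of 1.00, 0.90, 0.83, 0.70 and 0.62. In the Icam1-like state they were Me1 and Elovl6, with log2 ratios of 0.88 and 0.66. Elovl6 was past the fold in the F3-like state too, with 0.94, where Scd1 was at 39.8 and 25.9 UPM, a log2 ratio of -0.62 (-0.91 to -0.33).

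**Figure D3:**
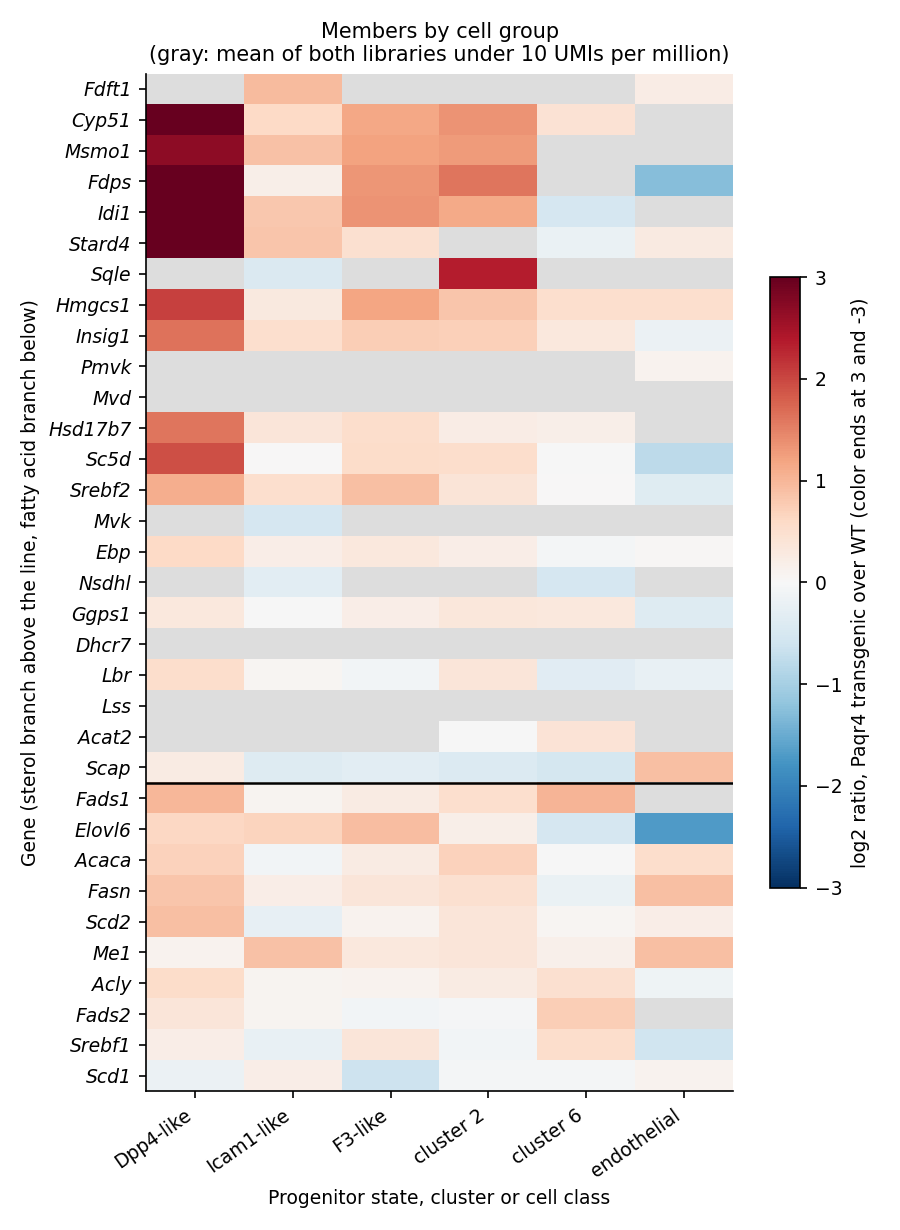
log2 ratio of each gene, Paqr4 transgenic over WT, in each progenitor state or cluster and in endothelial cells (1 library per genotype), with colors ending at 3 and -3 and gray cells where the mean of both libraries was under 10 UPM. The darkest column is the Dpp4-like state, where Cyp51, Fdps, Idi1 and Stard4 exceed a log2 ratio of 3.

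The higher sums were spread over many Dpp4-like cells, with a tail. Per cell, the sterol branch had medians of 259.1 and 581.1 UPM in Dpp4-like progenitors, from medians of 7 and 13 sterol UMIs a cell. The 10th percentiles were 114.8 and 245.0 UPM and the 90th percentiles 505.7 and 1477 UPM, and each of these percentiles was higher in the transgenic library. The 5 cells with most sterol UMIs held 6.67% of them in the WT library and 17.0% in the transgenic one. Over all progenitors the medians were 307.1 and 469.9 UPM for the sterol branch and 365.7 and 436.3 UPM for the fatty acid branch.

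**Figure D4:**
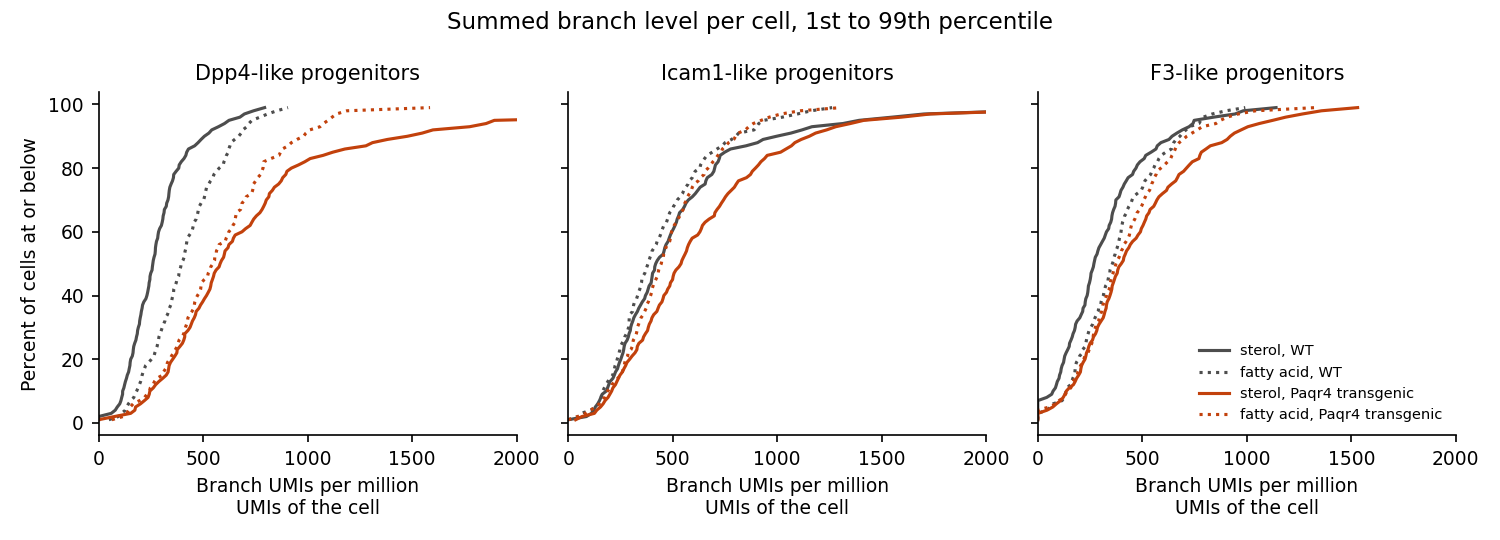
Percent of cells at or below a given branch level, in UPM of the cell, for the sterol (solid) and fatty acid (dotted) branches in the 3 progenitor states of the WT (gray) and Paqr4 transgenic (orange) libraries, drawn from the 1st to the 99th percentile. In Dpp4-like progenitors the sterol median moves from 259.1 to 581.1, and in Icam1-like ones from 418.6 to 539.9.

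Shares of cells with a UMI moved the same way once depth was made equal. With every cell thinned to 5000 UMIs, leaving out 3 shallower cells in each library, 14.8% (WT) and 32.4% (transgenic) of Dpp4-like progenitors had a UMI of Hmgcs1, and 2.53% and 21.6% had one of Cyp51. Unthinned, the Hmgcs1 shares were 40.0% (33.8% to 46.5%) and 65.9% (58.5% to 72.8%), by exact Clopper-Pearson intervals, and the Cyp51 shares 12.5% (8.60% to 17.4%) and 39.7% (32.4% to 47.2%). Barcodes with 50 UMIs or fewer, which stand for free RNA, held Hmgcs1 at 17.5 and 29.8 UPM and Cyp51 at 4.21 and 19.2 UPM. In that free RNA the sterol sum was 210.1 and 405.8 UPM and the fatty acid sum 195.3 and 332.6 UPM. The median gene there was also higher in the transgenic library, by a log2 ratio of 0.34. How much of the cell values came from free RNA was not tested. The heat shock gene Hspa1b, a sign of stress during dissociation, was at 509.8 and 777.0 UPM in Dpp4-like progenitors, and its part in the result was not tested either.

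Within each library, Icam1-like and Dpp4-like progenitors stood in opposite order. In the WT library the sterol branch was higher in Icam1-like cells, at 530.7 against 284.4 UPM, a log2 ratio of 0.90 (0.81 to 0.99). In the transgenic library it was lower in Icam1-like cells, at 631.7 against 807.9 UPM, a log2 ratio of -0.35 (-0.42 to -0.29). Of the 14 sterol genes at the floor in the WT library, 8 were 1.5-fold or more higher in Icam1-like cells, against 21.8% of all genes, and 0 in Dpp4-like cells, against 9.29%. Of those 8, 5 (Cyp51, Fdps, Idi1, Msmo1 and Sqle) reached the floor only through the Icam1-like cells. In the transgenic library 0 of 18 were higher in Icam1-like cells, against 18.4%, and 5 of 18 in Dpp4-like cells, against 8.97%. The 5 were Hsd17b7, Cyp51, Fdps, Stard4 and Hmgcs1, with log2 ratios of -1.15, -1.11, -0.75, -0.64 and -0.61 for Icam1-like over Dpp4-like cells. Of the 14 genes at the floor in both libraries, 11 were above 0 in the WT library and below 0 in the transgenic one.

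Sqle was at 20.3 UPM in Icam1-like and 0.797 UPM (5 UMIs) in Dpp4-like cells of the WT library, and its transgenic levels were 15.0 and 17.0 UPM, a log2 ratio of -0.19 (-0.63 to 0.27). By Icam1-like cluster, Sqle was at 13.0 (WT) and 13.8 UPM (transgenic) in cluster 3, and at 70.2 and 71.5 UPM in cluster 8. Icam1-like levels of Sc5d were 45.7 and 46.0 UPM in the WT and transgenic libraries, a log2 ratio between libraries of 0.01 (-0.24 to 0.26). Its levels were 40.2 and 45.4 UPM in cluster 3, and 82.7 and 78.0 UPM in cluster 8. Within the Icam1-like state the small cluster 8, with 35 WT and 11 transgenic cells, stood apart with sterol sums of 981.2 and 1378 UPM. Cluster 3 alone was at 464.6 and 615.6 UPM, a log2 ratio of 0.41 (0.33 to 0.48) between libraries. Without cluster 8 the Icam1-like over Dpp4-like ratio was 0.71 in the WT library and -0.39 in the transgenic one.

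**Figure D5:**
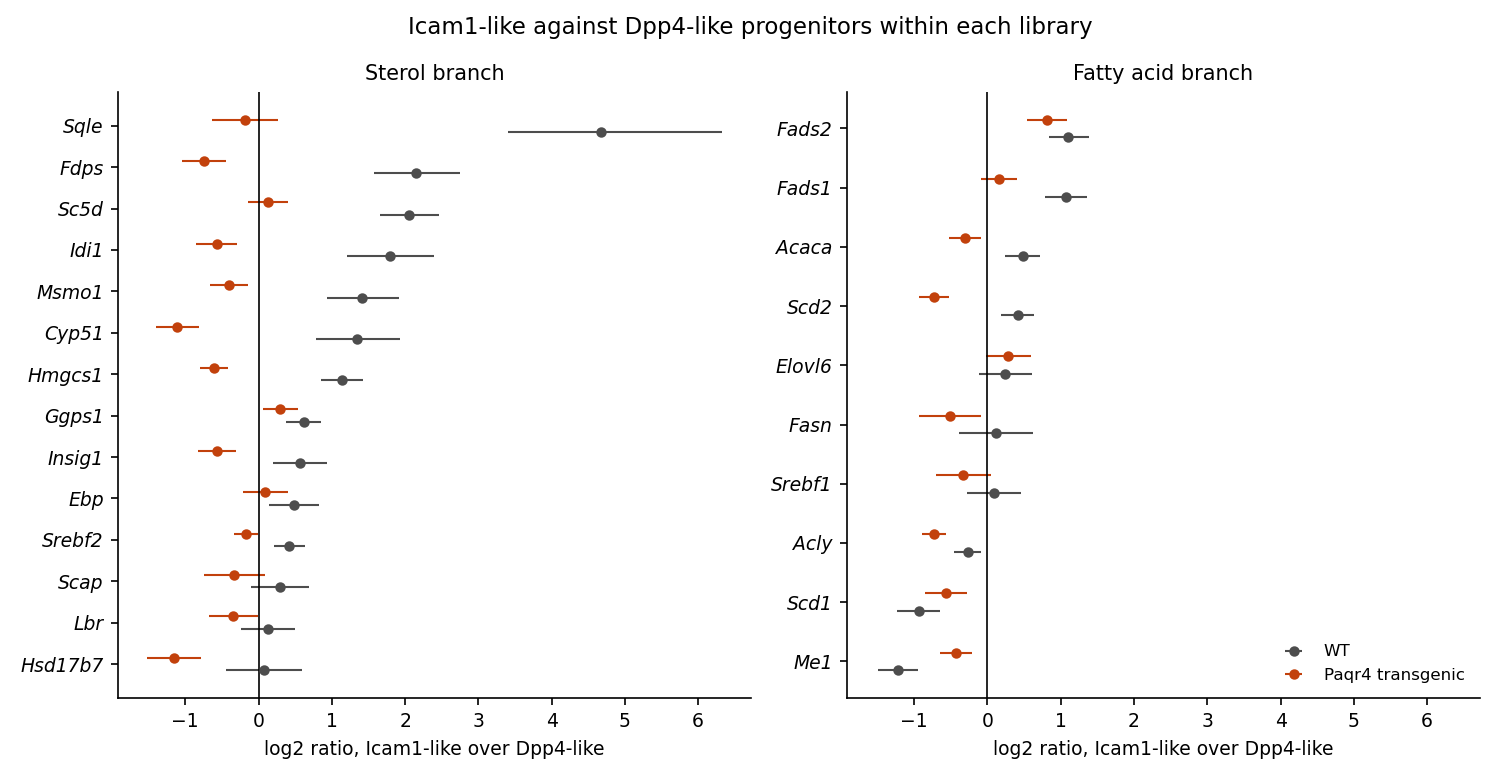
log2 ratio of Icam1-like over Dpp4-like progenitors within the WT (gray) and the Paqr4 transgenic (orange) library for the 14 sterol and 10 fatty acid genes at 10 UPM or more in both libraries, with 95% exact conditional intervals for counting error. All 14 sterol genes have the higher ratio in the WT library, and 7 of the 10 fatty acid genes do.

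The fatty acid branch had no such order in the WT library. Its sum was 444.5 UPM in Icam1-like and 422.3 UPM in Dpp4-like cells, a log2 ratio of 0.07 whose interval, -0.01 to 0.16, included 0. In the transgenic library it was 483.4 against 595.4 UPM, a log2 ratio of -0.30 (-0.38 to -0.23). Single genes differed between states in both libraries: Fads2 was at 61.4 UPM in Icam1-like and 28.5 UPM in Dpp4-like WT cells, and at 64.7 and 37.0 UPM in transgenic ones. Me1 was the reverse in the WT library, at 28.9 and 67.3 UPM, and stood at 53.3 and 71.8 UPM in the transgenic one. In the WT library 2 of 10 fatty acid genes, Fads2 and Fads1, were 1.5-fold or more higher in Icam1-like cells, near the 21.8% of all genes, and 2, Scd1 and Me1, in Dpp4-like cells, against 9.29%. Of the 10 genes in the transgenic library 1, Fads2, was 1.5-fold or more higher in Icam1-like cells, below the 18.4% of all genes, and 2, Acly and Scd2, in Dpp4-like cells, against 8.97%.

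Endothelial cells did not show the difference between libraries, within a wide interval. Their sterol sum was 465.0 UPM (424.1 to 508.8) against 450.4 UPM (400.6 to 504.7), a log2 ratio of -0.05 (-0.26 to 0.17). This interval lay below the progenitor ratio of 0.70. The fatty acid sum was 358.1 and 359.4 UPM, a log2 ratio of 0.00 (-0.24 to 0.25), an interval that overlapped the progenitor one. Only 474 and 297 sterol UMIs were counted in endothelial cells, so single genes had wide intervals, and with the 5 cells holding most UMIs of each gene left out the sterol ratio was -0.41.

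Against endothelial cells, progenitors were lower in the sterol branch in the WT library, with a log2 ratio of -0.35 (-0.49 to -0.22), and higher in the transgenic one, with 0.39 (0.22 to 0.56). The WT direction turned, to 0.17, when the 5 cells with most UMIs of each gene were left out. In the WT library 1 of 12 sterol genes, Msmo1, was 1.5-fold or more higher in progenitors, against 21.1% of all genes, and 3 of 12 in endothelial cells, against 38.3%. Msmo1 reached the floor only through the progenitors, and 1 of the 3, Stard4, only through the endothelial cells. In the transgenic library the counts were 9 of 17, against 23.7%, and 4 of 17, against 34.0%. Of the 9, 4 (Cyp51, Fdps, Hsd17b7 and Msmo1) reached the floor only through the progenitors. Of the 4 that were higher in endothelial cells, 1 reached the floor only through those cells. Stard4 was higher in endothelial cells of both libraries, at 44.1 against 5.86 UPM (WT) and 53.1 against 14.2 UPM (transgenic). Lbr was too, at 84.4 against 24.1 UPM and 72.8 against 27.2 UPM. The endothelial Ggps1 level, 79.5 UPM, was above the 47.8 UPM of progenitors in the WT library, and the transgenic values were 60.7 and 57.9 UPM.

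The desaturases divided the 2 cell classes in both libraries. Fads2 was at 39.2 UPM in progenitors and 6.87 UPM in endothelial cells of the WT library, and at 44.6 UPM against 0 UMIs in the transgenic one, where 3 UMIs would be 4.55 UPM. Fads1 was at 34.4 against 13.7 UPM and 47.8 against 6.07 UPM, and Scd2 at 51.1 against 18.6 UPM and 62.1 against 21.2 UPM. Scd1 went the other way, at 41.7 against 134.4 UPM and 35.5 against 145.6 UPM. It was seen in only 14.9% and 24.7% of endothelial cells, and 5 cells held 83.9% and 51.0% of its endothelial UMIs. The 8 adipocyte genes of the comparison list, Adipoq among them, summed to 49.1 and 213.8 UPM in endothelial cells and to 2.58 and 2.79 UPM in progenitors. Their part in the endothelial Scd1 level was not tested. In the WT library 5 of 10 fatty acid genes were 1.5-fold or more higher in progenitors, against 21.1% of all genes, and 1 of 10, Scd1, in endothelial cells, against 38.3%. Of the 5, 1 (Fads2) reached the floor only through the progenitors. In the transgenic library the counts were 7 of 10, against 23.7%, and 1 of 10, against 34.0%, and 4 of the 7 (Elovl6, Fads1, Fads2 and Srebf1) reached the floor only through the progenitors.

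Other genes of sterol and fatty acid handling were read in progenitors as lists. Of 12 further genes of sterol synthesis and SREBP processing, 10 reached the floor, with a median log2 ratio of 0.14. Of the 10, 2 were 1.5-fold or more higher in the transgenic library, against 2.49% of all genes. Among the 2 was Pcyt2 of phosphatidylethanolamine synthesis, at 8.48 and 14.4 UPM with a log2 ratio of 0.76 (0.52 to 1.01). Pcyt2 reached the floor only through the transgenic library, which by itself favours a higher ratio. Of 14 genes of cholesterol uptake and transport, 8 reached the floor, with a median of 0.12. Of the 8, 1 was past the fold, where 2.49% of all genes were higher and 1.55% lower by as much. Of 22 further genes of fatty acid synthesis, 13 reached the floor, with a median of 0.21 and none past the fold. Fads3, Hsd17b12 and Acss2 had the largest ratios there, 0.53, 0.52 and 0.46.

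Genes of cholesterol efflux and oxysterols lay on both sides of 0. Of 12 genes, 8 reached the floor, with a median log2 ratio of -0.28, of which 5 were below 0 and 3 above. Of the 8, 3 were 1.5-fold or more lower in the transgenic library, against 1.55% of all genes, and 0 higher. Apoe, the apolipoprotein that takes up effluxed lipid, was at 291.9 and 140.1 UPM, a log2 ratio of -1.06 (-1.12 to -1.002). Abca1, the transporter that exports cholesterol, was at 183.1 and 102.8 UPM, a log2 ratio of -0.83 (-0.90 to -0.76). Cyp7b1, the oxysterol 7-alpha-hydroxylase, was at 74.8 and 43.6 UPM, a log2 ratio of -0.78 (-0.89 to -0.67). These differences were not found in every cluster. In cluster 6 Abca1 and Apoe were higher in the transgenic library, with log2 ratios of 0.51 (0.16 to 0.88) and 0.29 (0.0004 to 0.58). Cyp7b1 was lower there, with -0.54 (-0.98 to -0.09). In cluster 8 Apoe was higher, with 0.30 (0.08 to 0.51). The Abca1 and Cyp7b1 ratios of cluster 8, -0.49 and 0.12, had intervals that included 0. Apoe is also on the list of Icam1-like markers, so it is not independent of how states were named. None of the 8 adipocyte genes reached the floor in progenitors. Of the 8 proliferation genes only Pcna did, at 43.1 and 37.4 UPM with a log2 ratio of -0.21.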

How the data were processed

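The 2 deposited tables hold whole-number UMI counts per gene and barcode, with all barcodes kept. They were made with Cell Ranger 7.0.0 on mm10 per the submitters' processing notes, while the file headers name Cell Ranger 4, and the gene annotation was not given in the sources used here. The totals were 44145257 UMIs in the WT and 43084906 in the transgenic table.

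Cells needed 1000 UMIs, 500 genes and at most 10% mitochondrial UMIs, which 1329 WT and 1525 transgenic barcodes passed, and Scrublet doublets (3 and 13) were removed. Cells of both libraries were clustered together with scanpy 1.11.5 and leidenalg 0.10.2 (2000 variable genes without the 33 members, 30 components, 15 neighbours, resolution 0.5, no library correction). Of 8 clustering settings looked at, those that scaled genes were dropped, and the naming thresholds were set, after the clusters had been seen. Clusters were named from marker lists.

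UMIs were summed per class and library. Sums have exact Poisson intervals, shares Clopper-Pearson intervals and ratios exact conditional intervals, computed with scipy 1.17.1. These 95% intervals cover counting error only, and with 1 library per genotype no test was run. The interval code was tested on simulated data. Genes needed a mean of 10 UPM over the 2 groups compared, 1.5-fold was the call, and a gene with 0 UMIs was set to 3 UMIs for a ratio. Shares were also read after thinning each cell to 5000 UMIs, for which 25 WT and 47 transgenic progenitors were too shallow. Free RNA was taken from barcodes of at most 50 UMIs.

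All members at 10 UPM were described singly, and from other lists at most 3 genes with the largest ratios. Some genes of those lists are not reported here. The members and lists were chosen with earlier results of these data known.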

Additional observations from a re-analysis of the deposited data

How the results depend on the processing

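Comparisons between libraries within states or endothelial cells, and cluster 3 taken alone, were added after the data had been seen. Over all alternatives run, the sterol sum in progenitors stayed between 0.61 and 0.71 (log2, transgenic over WT). It was 0.61 as a mean over cells, 0.63 with cells thinned, 0.62 with the median ratio as the scale, which shifts all genes by 0.08, and 0.61 with equal weight per cluster. The sterol median was 0.66, 0.63, 0.64, 0.64 and 0.44 for the mean over cells, thinned cells, the top 5 cells per gene left out, no floor and a floor of 50 UPM. The floor of 50 UPM left 1 gene past the fold in place of 11, because fewer genes were tested. At that floor the sterol median rested on Srebf2 and Ggps1 alone. The fatty acid sum was 0.18 with the median ratio as the scale and 0.30 with equal weight per cluster. Leaving out the top 5 cells per gene turned the WT progenitor over endothelial sterol ratio to 0.17 and gave 1.29 in the transgenic library, with 1.37 and 1.27 for fatty acids (0.48 in WT as a mean over cells) and -0.41 between endothelial libraries. In about 100 endothelial cells this removes much of each gene's UMIs.

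Icam1-like over Dpp4-like sterol ratios in the WT library were 0.71 at 2000 UMIs per cell, 1.00 at 5% mitochondrial UMIs, 0.65 with doublets kept, 0.65 with members in the clustering, 0.55 at resolution 0.3, 0.62 with libraries clustered apart, 1.00 thinned and 0.71 for cluster 3 alone. In the transgenic library they were -0.55 at resolution 0.3, -0.28 as a mean over cells and -0.15 without the top 5 cells. Fatty acid ratios were -0.020, -0.058 and -0.032 in WT with members in the clustering, at resolution 0.3 and for cluster 3 alone, and -0.40, -0.38, -0.22 and -0.22 in the transgenic library at resolution 0.3, clustered apart, thinned and without the top 5 cells. Between libraries, Dpp4-like sterol ratios were 1.38 with doublets kept and 1.40 without the top 5 cells. Icam1-like ones were 0.37, 0.37, 0.42, 0.41, 0.50, 0.40 and 0.41 at 2000 UMIs, with doublets kept, members in the clustering, resolution 0.3, libraries apart, without the top 5 cells and for cluster 3 alone. F3-like ones were 0.44, 0.49, 0.42, 0.50, 0.48, 0.30 and 0.73 at 2000 UMIs, 5% mitochondrial UMIs, doublets kept, members in the clustering, resolution 0.8, libraries apart and without the top 5 cells, and no F3-like cluster was found at resolution 0.3. Where no cause is given, the cause was not tested. No paired analysis was possible because each genotype had 1 library.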

Other observations

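Small clusters outside the progenitors and endothelial cells held the highest fatty acid levels. In the adipocyte-like cluster (2 WT and 8 transgenic cells, median 1437 UMIs per cell), led by genes such as Fabp4, Car3 and Scd1, the 10 fatty acid genes summed to 24308 and 28696 UPM. The sterol genes summed to 3109 and 2532 UPM there, from 11 and 33 UMIs. Schwann-like cells (6 and 3 cells) had fatty acid sums of 1835 and 1489 UPM and sterol sums of 699.7 and 546.0 UPM. The epithelial-like cluster (9 and 6 cells) had fatty acid sums of 1170 and 1004 UPM. These clusters hold too few cells for a comparison between libraries.

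Across single progenitors the sterol and fatty acid levels had a Pearson r of 0.27 over 1125 WT cells and 0.31 over 1350 transgenic cells, with Spearman rho of 0.16 and 0.24. The cells of a library share that library, and both levels share each cell's depth.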
